A study of Mus musculus with 4 samples.

Results

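The genes described here encode the subunits of the mitochondrial oxidative phosphorylation machinery that lie in the nuclear genome. They were chosen by symbol alone: every gene in the features files whose symbol starts with Nduf, Uqcr, Atp5, Cox4i, Cox5, Cox6, Cox7 or Cox8 was taken, except 1 feature whose symbol ends in -ps. This gave 89 of 32285 features: 36 subunits of complex I, 8 complex I assembly factors with the Ndufaf symbol, 8 genes of complex III, 20 of complex IV and 17 of the ATP synthase. Ndufa4 and Ndufa4l2 were counted with complex IV, and Cox7a2l with the complex IV genes whose symbol it shares. Of the 89 genes, 86 had at least 1 UMI (unique molecular identifier, the mark of 1 captured transcript), and together they held 2.25% of all UMIs. Cox7b2, Cox8b and Cox8c, isoforms known from sperm or muscle, had 0 UMIs, and Ndufa4l2 had 1.

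The cells were CD45-positive leukocytes of the liver of IL-22sgBFP reporter mice, in which a blue fluorescent protein (BFP) reports on the Il22 gene. MC38 cells, a mouse colon carcinoma line, were injected into the spleen, and livers were taken before the injection (0 h) and 12 h after it. At each time the leukocytes were sorted into BFP-negative and BFP-positive fractions, and each fraction gave 1 library of 3′-end single-cell RNA sequencing. All 4 groups carry the reporter allele. A mock injection is not among them, and how many mice were used for each library is not stated in the labels.

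Since a group consists of 1 library, differences could not be tested and p-values are not given. Every ratio below compares 2 libraries, not 2 conditions. Its 95% interval is exact, comes from the counted UMIs alone, and does not cover the differences between mice. The libraries held 8061 and 9717 kept cells in the BFP-negative fraction at 0 h and 12 h, and 286 and 1313 in the BFP-positive fraction, with median depths between 1804 and 3667 UMIs per cell. Il22 itself had 16 and 1 UMIs in the 0 h and 12 h BFP-negative libraries and 6 and 0 in the BFP-positive ones, so at 12 h the transcript gave no check of the sort. The libraries shared between 0 and 116 cell barcodes, at most 2.0% of the barcodes of the smaller library of a pair. A group of low-UMI clusters, below 0.5 of their library's median depth, held 22.3% of the cells of the 0 h BFP-negative library and 4.94% of that of 12 h, and received no cell-type name.

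In oxidative phosphorylation, complexes I, III and IV of the inner mitochondrial membrane pass electrons from NADH to oxygen and pump protons, and the ATP synthase lets the protons flow back to make ATP. A core set of subunits is made from mitochondrial DNA, while the others are imported from the cytosol, so nuclear and mitochondrial genes must supply each of these 4 complexes together. In leukocytes the balance between this pathway and glycolysis is known to differ between resting and activated cells and between cell types. Nuclear factors such as NRF1, YY1, the ETS-family protein GABP and the estrogen-related receptors are known regulators of many of these genes.

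The start of transcription of 72 of the 89 genes was found in RefSeq (GRCm38.p6), and the window from 250 bases before to 50 bases after it was searched on both strands for 4 motifs, none of which contains another. The NRF1 core, GCGC followed by any 2 bases and again GCGC, was in 18 of the 72 windows (25%), against 6.43% of 27025 windows of the same length. Those 27025 were the first window listed for each gene symbol, expressed here or not. The 72 were instead the windows nearest the start of the principal transcript, so the shares were not built by the same rule. The YY1 motif AAGATGGCG was in 7 (9.72% against 1.49%), the ETS motif CCGGAAGT in 5 (6.94% against 4.0%) and the estrogen-related receptor motif TCAAGGTCA in 1 (1.39% against 0.407%). A match is a description of the letters and not a bound site. The 100 bases just before the start are shown for 6 genes. Atp5k and Atp5g3, which stood higher at 12 h in monocyte-like cells, and Cox7a2l and Uqcrc1, which stood lower in some of the libraries, return in the results below. Ndufs5 and Uqcr11 are examples of a stretch with a motif, added after their values were seen, and their ratios between 12 h and 0 h in monocyte-like cells were 1.29 and 1.54 in the BFP-negative and 1.59 and 1.48 in the BFP-positive libraries. They are printed 5′ to 3′ on the gene's own strand with a match in capitals, at chr5:108434400-108434499 (minus strand) for Atp5k, chr4:123718187-123718286 (minus) for Ndufs5, chr10:80406822-80406921 (minus) for Uqcr11, chr2:73911327-73911426 (minus) for Atp5g3, chr17:83514334-83514433 (minus) for Cox7a2l and chr9:108936548-108936647 (plus) for Uqcrc1. The capitals mark the NRF1 core in Atp5k and Ndufs5, the ETS motif in Uqcr11 and the estrogen-related receptor motif, read on the other strand, in Atp5g3, and no capitals appear in the last pair because none of the 4 motifs is in those stretches. The NRF1 core was, however, in the longer searched windows of Uqcrc1 and Atp5g3, though not within the printed bases, so genes with higher and with lower ratios held it, while the window of Cox7a2l held none of the 4 motifs.
Atp5k: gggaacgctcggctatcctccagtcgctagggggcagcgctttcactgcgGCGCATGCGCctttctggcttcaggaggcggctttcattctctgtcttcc
Ndufs5: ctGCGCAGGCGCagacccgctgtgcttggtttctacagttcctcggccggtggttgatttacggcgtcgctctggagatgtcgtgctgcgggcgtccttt
Uqcr11: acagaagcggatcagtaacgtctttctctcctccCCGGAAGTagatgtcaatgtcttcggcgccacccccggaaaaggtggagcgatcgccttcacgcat
Atp5g3: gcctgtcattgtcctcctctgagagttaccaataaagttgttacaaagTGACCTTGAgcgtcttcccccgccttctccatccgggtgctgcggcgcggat
Cox7a2l: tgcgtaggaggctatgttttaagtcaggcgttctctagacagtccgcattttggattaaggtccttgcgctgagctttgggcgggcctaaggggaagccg
Uqcrc1: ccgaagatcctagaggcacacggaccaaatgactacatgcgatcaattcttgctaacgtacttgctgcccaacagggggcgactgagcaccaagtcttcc

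Levels were taken as the UMIs of a gene, or of all 89 genes, per 1000000 UMIs (CPM) of the cells of 1 class in 1 library. Because 1 transcript gives at most 1 UMI at its end whatever its length, CPM of different genes were compared without a length correction, while capture can still differ between genes. Classes were named from marker genes and carry the suffix "-like". Clusters were made from the variable genes of all cells, so a difference between classes is a description and has no test. A CPM is a share, so that a higher share of some genes lowers that of others.

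The summed level of the 89 genes differed by class. Among the named classes of the 0 h BFP-negative library it was highest in plasmacytoid dendritic (pDC)-like cells with 25635 CPM, or 2.56% of their UMIs. A cluster led by genes of dividing cells such as Birc5 and Ube2c, which received no class name, stood higher, at 30127 CPM in 65 cells at 0 h and 29680 CPM in 161 cells at 12 h. Conventional dendritic (cDC)-like cells followed at 24535 CPM, the cluster class of NK or ILC1-like cells at 23859 CPM and monocyte-like cells at 23464 CPM. Plasma-cell-like cells stood at 21934 CPM, T-cell-like cells at 20551 CPM, B-cell-like cells at 16903 CPM and basophil-like cells at 13589 CPM. NK or ILC1-like and monocyte-like cells are neighbours in this order whose counting intervals overlap (23633 to 24086 and 23084 to 23849 CPM). The low-UMI clusters held 7315 CPM, and neutrophil-like cells, with enough cells only at 12 h, held 10750 CPM in the BFP-negative and 9532 CPM in the BFP-positive library. At 12 h the order of the named BFP-negative classes had changed at the top, with monocyte-like cells at 27463 CPM beside pDC-like cells at 27546 CPM, while B-cell-like cells stood at 18370 CPM and basophil-like cells at 17101 CPM.

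**Figure D1:**
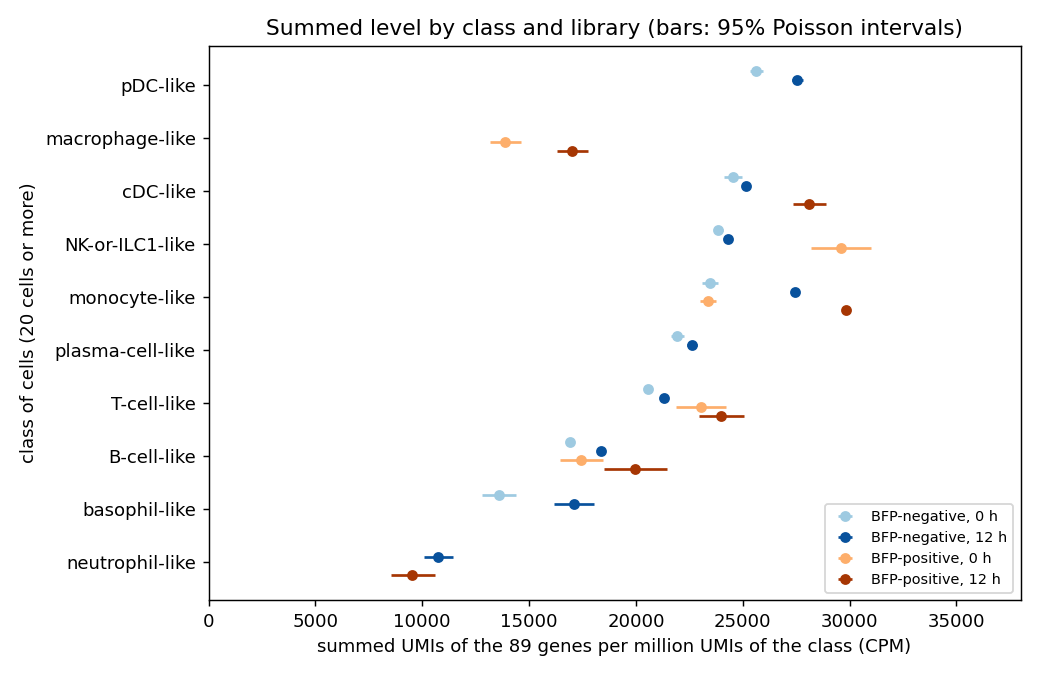
Summed level of the 89 genes in CPM (horizontal axis, linear, from 0) for each class with at least 20 cells (vertical axis), with 1 point per library and bars for the exact 95% Poisson interval of the counted UMIs. Monocyte-like cells stand at 23464 and 23390 CPM in the 0 h BFP-negative and BFP-positive libraries and at 27463 and 29816 CPM in those of 12 h, with both 12 h points to the right of both 0 h points.

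In T-cell-like cells of the 0 h BFP-negative library, the sum came from the ATP synthase for 31.3%, from complex IV for 28.5%, from complex I for 28.2% and from complex III for 10.8%, while the Ndufaf assembly factors gave the small remainder. Single genes differed widely. Cox8a and Cox4i1, nuclear subunits around the catalytic core of complex IV, stood at 989 and 932 CPM, and Uqcrh, the hinge subunit of complex III, at 906 CPM. Among ATP synthase genes, Atp5e (the epsilon subunit of the F1 head) reached 721 CPM, Atp5g2 and Atp5g3 (genes of the c ring) 625 and 563 CPM, Atp5h (the d subunit of the stalk) 548 CPM, Atp5d (the delta subunit) 535 CPM and Atp5l (the g subunit) 505 CPM. Cox7a2l, known for joining complexes III and IV into supercomplexes, stood at 547 CPM and completed the 10 highest genes.

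The isoform genes of subunit VIa of complex IV differed between pDC-like cells and the other classes. Cox6a2 (GRCm38 chr7:128205435-128206387, minus strand) encodes the heart and skeletal muscle form of this subunit, and Cox6a1 encodes the form found in most tissues. In the 0 h and 12 h BFP-negative libraries, pDC-like cells held 2453 and 2588 CPM of Cox6a2, against 3.33 and 2.11 CPM in T-cell-like cells, a level 736 (465 to 1244) and 1227 (765 to 2108) times higher that rests on 18 and 17 UMIs in T-cell-like cells. Cox6a2 therefore stood above the 378 and 414 CPM of Cox6a1 in pDC-like cells and gave 27.1% of their complex IV UMIs at each time. At least 1 Cox6a2 UMI was found in 284 of 346 pDC-like cells at 0 h (82.1%) and in 381 of 432 at 12 h (88.2%), and in 0.923% and 0.522% of T-cell-like cells, with median depths of 3661.5 and 3750.5 UMIs per pDC-like cell and 2544 and 2368 per T-cell-like cell. After thinning each cell to 1000 UMIs the shares were 76.4% and 79.9% in pDC-like cells and 0.526% and 0.167% in T-cell-like cells, so the contrast was also present at equal depth.

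**Figure D2:**
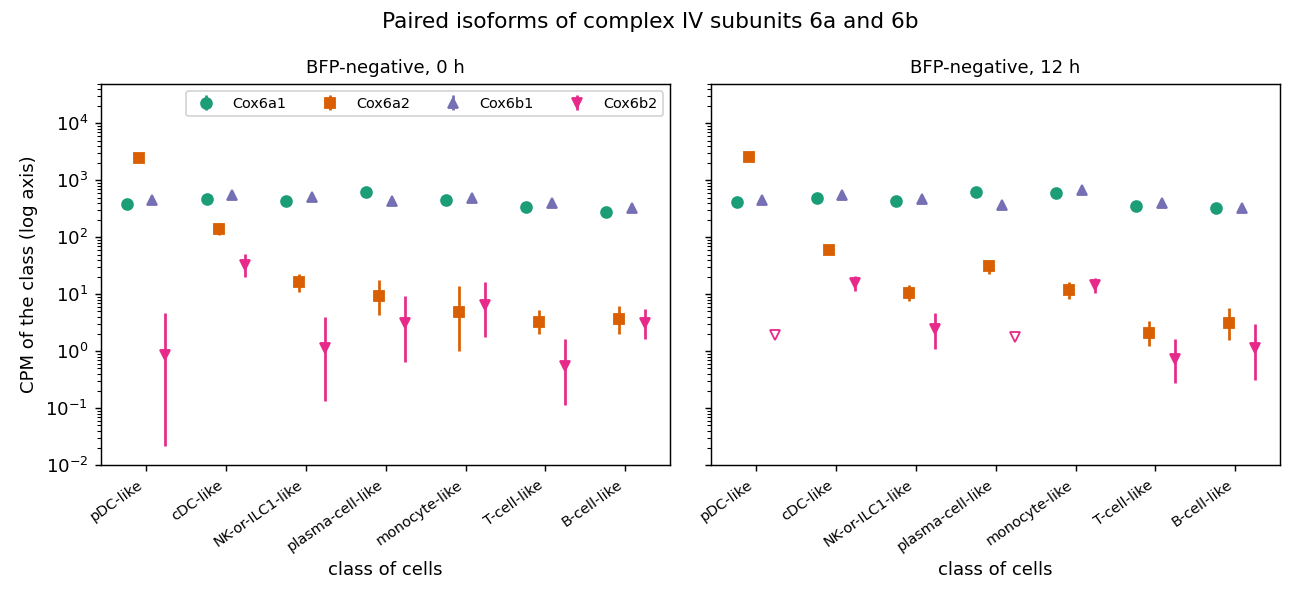
Level in CPM (vertical axis, log scale) of the isoform genes Cox6a1, Cox6a2, Cox6b1 and Cox6b2 in 7 classes (horizontal axis) of the 0 h and 12 h BFP-negative libraries, with bars for the exact 95% Poisson interval and open markers where a sum of 0 was set to 3 UMIs. Cox6a1 and Cox6b1 lie within a narrow band across classes, whereas Cox6a2 stands at 2453 and 2588 CPM in pDC-like cells and lies near 3.33 CPM in T-cell-like cells.

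Without Cox6a2, complex IV stood at 6595 and 6974 CPM in pDC-like cells, next to 7094 and 6982 CPM in cDC-like and 7002 and 7912 CPM in monocyte-like cells. The low counts of Cox6a2 in other classes were set beside Siglech, a surface receptor that marks pDC. There were 1.15 and 1.28 Cox6a2 UMIs per Siglech UMI in pDC-like cells, 0.964 and 0.730 in cDC-like, 1.12 and 0.739 in T-cell-like, and 5.80 and 2.60 in NK or ILC1-like cells. The T-cell-like values rest on 16 and 23 Siglech UMIs and the NK or ILC1-like ones on 5 and 15. B-cell-like cells had 1.00 and 1.83, from 14 and 6 Siglech UMIs. Monocyte-like cells had 3.00 and 1.30, from 1 and 27. Plasma-cell-like cells had 9 Cox6a2 and 0 Siglech UMIs at 0 h and a value of 2.17 at 12 h. In cDC-like cells Cox6a2 stood at 142 CPM at 0 h and 60.5 CPM at 12 h, a ratio of 0.427. There it was found in 10 of 106 and 29 of 455 cells, with up to 31 and 34 UMIs in a single cell, and whether pDC among them carried this difference was not tested.

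The other tissue-specific isoforms were rare. Cox6b2, the testis form of subunit VIb, was highest in cDC-like cells at 33.2 and 15.7 CPM and stood at 6.45 and 14.5 CPM in monocyte-like cells. In cDC-like cells of the 0 h BFP-negative library it had 19 UMIs, against 319 of its partner Cox6b1. In pDC-like cells Cox6b1 stood at 445 and 455 CPM. Cox4i2, the oxygen-responsive partner of Cox4i1, had 22 UMIs over all kept cells, and Cox7a1, the muscle partner of Cox7a2, had 73. Ndufa4, a complex IV subunit, and Cox7a2l differed between classes in opposite directions. Of Ndufa4, plasma-cell-like cells held 1277 and 1109 CPM and B-cell-like cells 301 and 329 CPM, a level 4.24 and 3.37 times higher. Of Cox7a2l, plasma-cell-like cells held 139 and 102 CPM and T-cell-like cells 547 and 541 CPM, a level 3.94 and 5.28 times higher. Atp5g1, a c ring gene, stood at 392 and 521 CPM in plasma-cell-like and 136 and 160 CPM in B-cell-like cells. The assembly factors with the highest ratios between classes rest on few UMIs on the low side. Ndufaf6 was 8.73 (2.95 to 35) and 6.09 (2.80 to 15.7) times higher in cDC-like than in plasma-cell-like cells, from 21 against 4 UMIs at 0 h and 68 against 7 at 12 h. Ndufaf2 was 5.19 (1.92 to 19.7) and 2.76 (1.92 to 4.05) times higher in NK or ILC1-like than in monocyte-like cells, from 60 against 4 UMIs and 134 against 39.

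The first question was how these genes differed between 12 h and 0 h. In the BFP-negative libraries the summed level was higher at 12 h in every named class compared, by the most in basophil-like and monocyte-like cells. Basophil-like cells, with 38 and 25 cells, stood at 17101 against 13589 CPM (ratio 1.26, 1.16 to 1.36), while the median share per cell was closer, at 1.39% against 1.31%. Monocyte-like cells stood at 27463 against 23464 CPM (1.17, 1.15 to 1.19), followed by B-cell-like cells at 1.09 (1.07 to 1.10) and pDC-like cells at 1.07 (1.06 to 1.09). The pDC-like class held a large cluster at 28390 against 26924 CPM and a small one of shallow cells at 4349 against 5579 CPM. T-cell-like cells stood at 21313 against 20551 CPM (1.04, 1.03 to 1.04), a sum over 4 clusters that went both ways. The largest, led by Cd40lg, stood at 22568 against 22946 CPM with 1396 and 763 cells, and one led by interferon-induced genes such as Ifit3b at 20772 against 21077 CPM with 268 and 33 cells. The other two, led by Gzmk and Dapl1, stood higher at 12 h, at 21330 against 20217 and 18984 against 17940 CPM. The ratios of NK or ILC1-like, cDC-like and plasma-cell-like cells were 1.02, 1.03 and 1.03.

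A gene was compared where at least 20 UMIs were expected in the smaller sum, and it was counted as higher or lower past 1.5-fold. In T-cell-like cells 0 of 81 genes were higher and 0 lower, where 2.47% of all genes tested were higher and 4.22% lower, and 55 of the 81 had a ratio above 1, as did 44.3% of all genes. The farthest were Uqcrq, a small subunit of complex III, at 385 against 299 CPM (1.29), and Ndufs1, the large iron-sulfur subunit of complex I, at a ratio of 0.774. In B-cell-like cells 66 of 81 genes lay above 1, where 37.5% of all genes did, again with 0 past 1.5-fold either way (1.91% and 7.30% of all genes). By transcript length, the median ratio over all genes was 1.06 below 600 bases and 0.916 from 2000 bases. Beside these stood 1.12 and 1.09 for the genes described here, and the part of length was not tested. Atp5e, Atp5g3, Atp5j2, Atp5md, Cox5a, Cox5b, Cox7c and Ndufa2 had a ratio above 1 in all 8 BFP-negative classes, and no gene compared in all 8 was lower in all of them. Some of these ratios were close to 1, with lowest values of 1.00 for Cox5b and 1.01 for Atp5g3 and Cox5a. The share of all genes with the same direction in all 8 classes was not counted.

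Monocyte-like cells had the highest ratio among the classes with more than 100 cells on each side. Of 75 genes compared between the BFP-negative libraries, 64 had a ratio above 1 (53.3% of all genes did), and 10 were past 1.5-fold higher and 1 lower. Of all 3431 genes tested, 11.7% were higher and 7.69% lower, so the counts past 1.5-fold alone do not set these genes apart. Their median ratio was 1.18, beside 1.02 over all genes. Between the BFP-positive libraries, 63 of 73 genes lay above 1 (48.9% of all genes did), 17 were past 1.5-fold higher and 2 lower, against 10.9% and 12.3% of all genes, and the medians were 1.32 and 0.991. There the summed level was 29816 against 23390 CPM (1.27, 1.253 to 1.297). With the ratios centred on the median gene, 28 of the 73 were higher and 2 lower, where 16.4% and 8.28% of all genes were. The difference between the 2 fractions in this ratio was not tested.

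**Figure D3:**
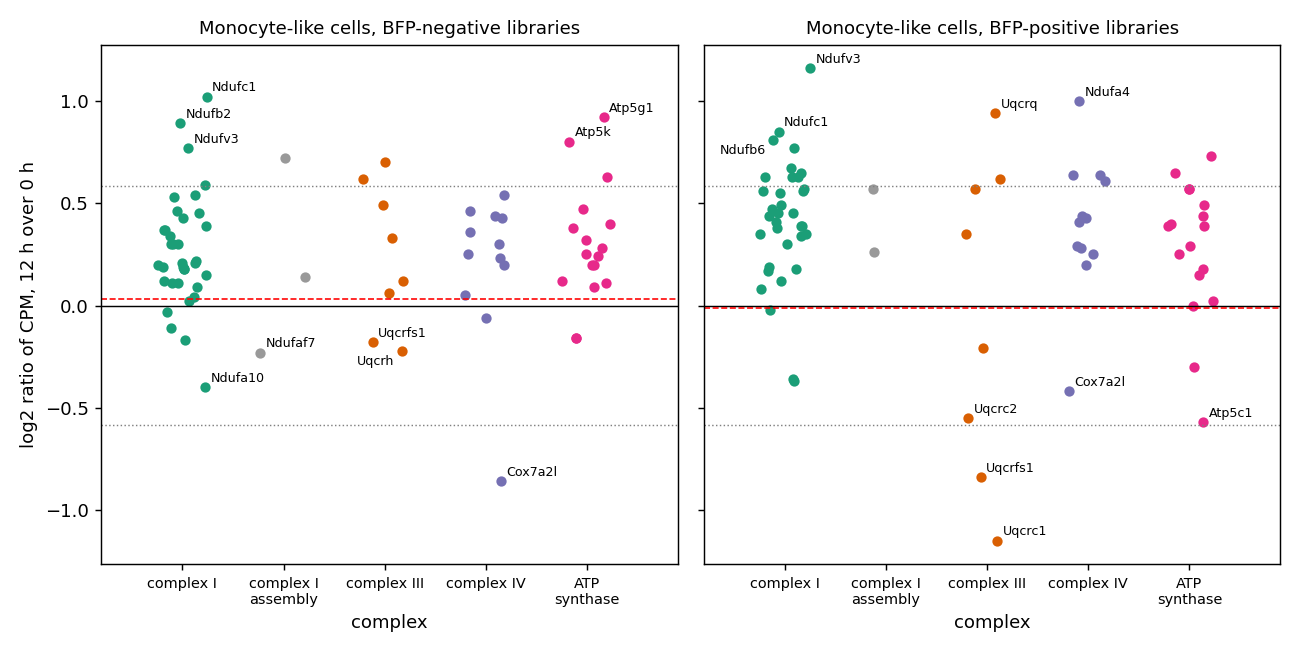
Ratio of the level at 12 h to that at 0 h (vertical axis, log2) of each gene compared in monocyte-like cells, by complex (horizontal axis), for the BFP-negative libraries (left) and the BFP-positive libraries (right). Dotted lines mark 1.5-fold and the dashed red line marks the median of all genes tested, and the 5 highest and 5 lowest genes are named, with Cox7a2l lowest on the left (0.553) and Uqcrc1 lowest on the right (0.452). Uqcrc1 was also low in cDC-like cells of the 12 h BFP-positive library, so its ratio cannot be told apart from a property of that library.

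The highest ratio of each fraction was that of a complex I gene, Ndufc1 in the BFP-negative and Ndufv3 in the BFP-positive libraries. Ndufc1, a small membrane-arm subunit, stood at 102, 205, 137 and 246 CPM in the 0 h BFP-negative, 12 h BFP-negative, 0 h BFP-positive and 12 h BFP-positive libraries. Ndufv3, a subunit near the NADH-binding tip, stood at 148, 254, 119 and 266 CPM in the same order. Both 12 h libraries were above both 0 h libraries for either gene, with 12 h ratios of 2.02 (1.56 to 2.66) and 1.80 for Ndufc1 and of 1.71 (1.37 to 2.15) and 2.23 (1.77 to 2.86) for Ndufv3. Of the complex I genes compared, 31 of 35 lay above 1 in the BFP-negative and 31 of 34 in the BFP-positive libraries, and their sums had ratios of 1.20 and 1.34.

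Complex III genes differed in direction. Uqcrq stood at 400, 648, 369 and 707 CPM in the order just given, with ratios of 1.62 and 1.92 (1.68 to 2.20). By contrast Uqcrc1, a core protein of the complex, stood at 194, 210, 138 and 62.5 CPM, so that its ratio was 0.452 (0.352 to 0.585) between the BFP-positive libraries while both BFP-negative libraries were close to each other. The Rieske iron-sulfur protein gene Uqcrfs1 stood at 315, 278, 256 and 143 CPM, with ratios of 0.882 and 0.559, and the second core protein gene Uqcrc2 had a ratio of 0.682 in the BFP-positive libraries. As described below, Uqcrc1 and Uqcrfs1 were also low in cDC-like cells of the 12 h BFP-positive library, at 0.303 and 0.447 of the BFP-negative one. Their ratios between the BFP-positive libraries thus cannot be told apart from a property of that library. Uqcrh stood at 773, 664, 861 and 744 CPM and was lower at 12 h between the BFP-negative libraries (0.860, 0.778 to 0.952).

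In complex IV, Ndufa4 stood at 410, 598, 307 and 614 CPM, with ratios of 1.46 (1.28 to 1.67) and 2.0 (1.73 to 2.33). Cox8a stood at 1033, 1187, 1033 and 1371 CPM and Cox4i1 at 1365, 1307, 1278 and 1468 CPM. Cox7a2l had the lowest ratios of complex IV: at 540, 299, 353 and 264 CPM it was lower at 12 h in each fraction, with ratios of 0.553 (0.487 to 0.629) and 0.748 (0.646 to 0.869). Over the 8 classes of the BFP-negative libraries, Cox7a2l was lower at 12 h in 6, with ratios between 0.553 and 1.10. Plasma-cell-like cells, whose levels are given above, were among the 6. In B-cell-like and T-cell-like cells of these libraries its ratio was 0.990 and 0.989, with intervals from 0.924 to 1.06 and from 0.943 to 1.04. Between the BFP-positive libraries it was lower in all 3 classes where it was compared, with ratios between 0.665 and 0.847.

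The genes of the c ring of the ATP synthase encode the same mature protein and differed in their ratios. Atp5g1 stood at 161, 306, 192 and 318 CPM and Atp5g3 at 510, 665, 442 and 658 CPM, both higher in each 12 h library than in each 0 h library. Atp5g2 stood at 489, 438, 455 and 504 CPM, with no such order. Atp5k, the e subunit of the membrane part, stood at 147, 255, 294 and 389 CPM and so was higher both at 12 h and in the BFP-positive libraries. Atp5c1, the gamma subunit that forms the central shaft, stood at 626, 561, 472 and 317 CPM and had a ratio of 0.673 between the BFP-positive libraries. At 12 h it was lower in the BFP-positive library in all 3 classes where it was compared, at ratios from 0.566 to 0.684. Its ratio over time thus cannot be told apart from a property of that library.

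Other gene lists of the monocyte-like cells give the setting of these values. The 13 subunits encoded by mitochondrial DNA stood at 16708 against 13302 CPM (1.26) in the BFP-negative libraries and at 16049 against 15661 CPM (1.02) in the BFP-positive ones. Complex II, which has no mitochondrial gene and feeds electrons from succinate, had ratios of 1.10 and 1.06. Atpif1, which inhibits the ATP synthase when it runs in reverse, had ratios of 1.57 in each fraction. Mitochondrial ribosomal protein genes had ratios of 1.10 and 1.32, proteasome genes of 1.09 and 1.14, and genes of the tricarboxylic acid (TCA) cycle of 1.12 and 0.826. Cytosolic ribosomal protein genes stood at 184201 against 202060 CPM (0.912) and at 206536 against 199695 CPM (1.03). The nuclear subunits were thus not the only genes with ratios above 1, and those of mitochondrial DNA were near 1 in the BFP-positive libraries.

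The monocyte-like class held 3 clusters. The cluster led by Chil3, a gene of inflammatory monocytes, had 97, 365, 29 and 404 cells in the 4 libraries in the order given above. The cluster led by Ear2, a gene of patrolling monocytes, had 42, 175, 111 and 468 cells, and a cluster led by Arg1 had 0, 46, 1 and 105. Most monocyte-like cells of the BFP-negative libraries were thus in the Chil3-led cluster, and most of the 0 h BFP-positive library in the Ear2-led one. Within the Chil3-led cluster the summed level was 29693 against 24399 CPM (1.22) in the BFP-negative and 33678 against 25220 CPM (1.34) in the BFP-positive libraries. Of the genes compared there, 13 of 75 and 26 of 63 were past 1.5-fold higher and 1 lower each time, where 11.0% and 20.9% of all genes were higher and 7.07% and 9.83% lower. Within the Ear2-led cluster the sums were 22349 against 20350 CPM (1.10) and 26460 against 22869 CPM (1.16). The ratios of these 2 clusters were above 1 in each fraction, and larger in the Chil3-led one. The Arg1-led cluster had too few cells at 0 h to be compared over time. The difference between clusters was not tested. At Leiden resolution 2, a cluster led by Saa3 and also by Chil3 had 4, 282, 2 and 291 cells in the 4 libraries. The Ear2-led cluster there had 133, 234, 117 and 458. Few 0 h cells were thus in the Chil3 cluster at that setting, so the ratios within clusters depend on the partition.

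**Figure D4:**
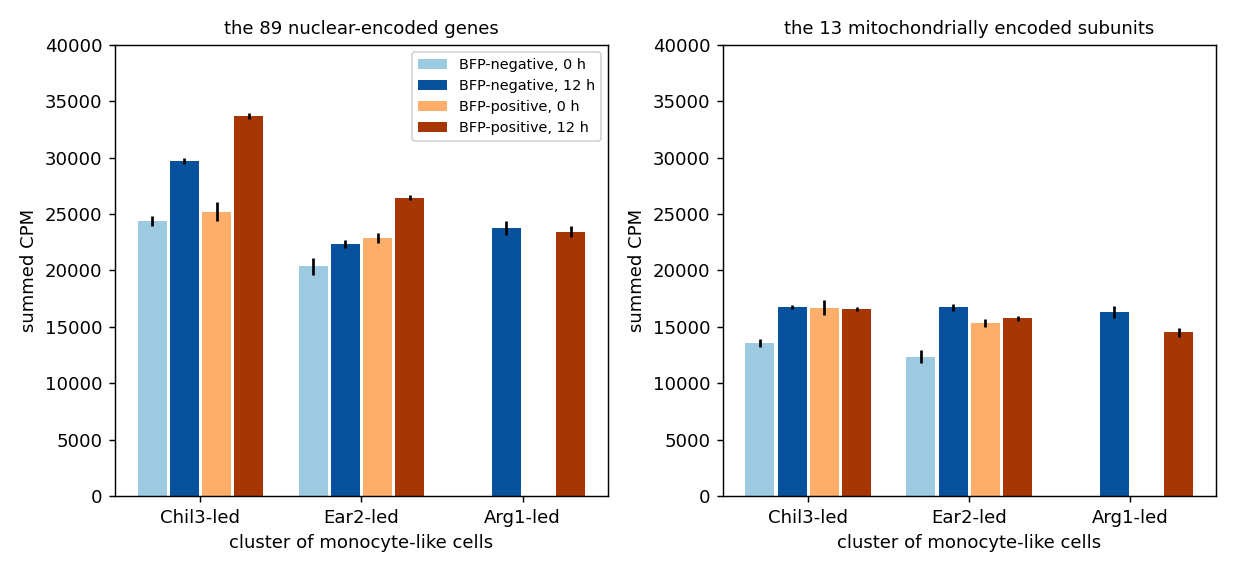
Summed CPM (vertical axes, linear) of the 89 nuclear genes and of the 13 mitochondrially encoded subunits in the Chil3-led, Ear2-led and Arg1-led clusters of monocyte-like cells (horizontal axis), with 1 bar per library and lines for the exact 95% Poisson interval of the counted UMIs. In the Chil3-led cluster the nuclear genes stand at 24399 and 29693 CPM in the 0 h and 12 h BFP-negative libraries and at 25220 and 33678 CPM in the BFP-positive ones, whereas the mitochondrially encoded subunits stand at 13584, 16746, 16697 and 16564 CPM.

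Markers of neutrophils moved with time in the same cells. The 14-gene neutrophil list summed to 93.6 CPM in the 0 h BFP-negative library, 4478 CPM in the 12 h one, 103 CPM in the 0 h BFP-positive library and 3275 CPM in the 12 h one, with 6, 9, 6 and 11 of its 14 genes found. Most of it was S100a8, at 11.3, 3047, 3.18 and 2262 CPM. Higher at 12 h in each fraction were also Lcn2 (11.3, 862, 9.54 and 663 CPM) and S100a9 (0, 329, 0 and 144 CPM). So were Mmp8 (33.9, 152, 25.4 and 122 CPM) and Il1r2 (1.61, 41.8, 1.59 and 22.2 CPM). Csf3r stood at 32.3, 36.0, 60.4 and 47.3 CPM. The neutrophil genes Camp and Retnlg were at 0 in all 4 libraries, and the other genes of the list at 11.0 CPM or less. Neutrophil-like cells held 10750 and 9532 CPM of the 89 genes at 12 h, below monocyte-like cells at either time. The 14 T-cell markers summed to 218, 223, 4.77 and 1.05 CPM, higher in the BFP-negative libraries. Erythroid genes reached 3139 CPM in the 12 h BFP-negative library and at most 1.83 CPM in the others, and without cells above 1% of such UMIs the ratio between the BFP-negative libraries was again 1.17. The median depth was 4462, 5061.5, 4101 and 3959 UMIs per cell. Within cells of 1500 to 5000 UMIs the ratio was 1.09 between the BFP-negative libraries, with 5 genes higher and 1 lower (13.4% and 7.34% of all genes), and 1.251 between the BFP-positive ones. The part of free RNA and of depth in the differences was otherwise not tested.

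Other classes of the BFP-positive libraries had few cells. Macrophage-like cells, 32 and 56, stood at 17022 CPM at 12 h against 13868 CPM at 0 h (1.23, 1.15 to 1.31), with 6 of 34 genes higher and 1 lower where 21.0% and 12.7% of all genes were. T-cell-like cells, 20 and 32, stood at 23993 against 23030 CPM, a ratio of 1.04 whose interval runs from 0.974 to 1.11, with 5 of 30 genes higher and 0 lower (9.04% and 12.0% of all genes). In cDC-like cells of the BFP-negative libraries 2 of 76 genes were higher (Ndufa8 at 142 against 85.7 CPM and Ndufv3 at 187 against 117 CPM) and 1 lower, Cox6a2, where 6.30% and 4.67% of all genes were.

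The second question was how the fractions differed at a given time. These comparisons use the same 4 libraries as the comparisons over time, so their values are not independent of those above. In T-cell-like cells the summed level was higher in the BFP-positive library, at 23030 against 20551 CPM at 0 h (1.12, 1.06 to 1.18) and at 23993 against 21313 CPM at 12 h (1.13, 1.08 to 1.18). The BFP-positive sides held 20 and 32 cells. At 0 h 2 of 23 genes were higher and 1 lower, against 3.70% and 9.97% of all genes, and at 12 h 3 of 34 were higher and 1 lower, against 3.09% and 22.5%. Centred on the median gene, the ratio at 12 h was 1.04 (0.995 to 1.09), with 0 genes higher and 2 lower (1.24% and 25.8% of all genes), and with mitochondrial and ribosomal protein genes left out of the total it was 1.28, with 6 higher and 1 lower (7.63% and 17.9%). The size of the T-cell-like difference at 12 h thus depends on the scaling. Cytosolic ribosomal protein genes had a ratio of 1.20 there and the mitochondrially encoded subunits 0.927.

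NK or ILC1-like cells, 20 in the 0 h BFP-positive library, stood at 29584 against 23859 CPM (1.24, 1.18 to 1.30), with 6 of 27 genes higher and 0 lower where 9.07% and 10.1% of all genes were. Their median share per cell was closer, at 2.44% against 2.33%. B-cell-like cells stood at 17430 against 16903 CPM at 0 h, a ratio of 1.03 with an interval from 0.972 to 1.09, and at a ratio of 1.09 at 12 h. In cDC-like cells of 12 h the ratio was 1.12 (1.09 to 1.15), with 6 of 67 genes higher and 5 lower, against 7.53% and 21.1% of all genes. Atp5e, which stood at 1166 against 721 CPM in T-cell-like cells of 0 h (1.62), was higher in the BFP-positive library in all 4 classes where it was compared at each time. The principal transcript of Atp5e has 421 bases. Among the members below 600 bases, the median ratio in T-cell-like cells was 1.22 at 0 h and 1.32 at 12 h. Over all genes of that length it was 1.17 and 1.21, and the part of length was not tested.

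In monocyte-like cells the fractions did not differ in the summed level at 0 h beyond counting error, at 23390 and 23464 CPM (0.997, 0.974 to 1.02). The class holds clusters in different shares, however. Within the Ear2-led cluster, the smaller one in the BFP-negative and the larger one in the BFP-positive library, the ratio was 1.124 (1.079 to 1.171), and within the Chil3-led cluster it was 1.034 (0.9958 to 1.073). This split of the 0 h cells was not kept at Leiden resolution 2. Of 75 genes in the whole class 4 were higher and 4 lower, against 15.5% and 11.5% of all genes, and the median ratio was 0.943 beside 0.985 over all genes. At 12 h the BFP-positive library stood at 29816 against 27463 CPM (1.09, 1.08 to 1.10). Within clusters the ratio was 1.184 (1.162 to 1.206) in the Ear2-led, 1.134 (1.122 to 1.147) in the Chil3-led and 0.985 (0.953 to 1.019) in the Arg1-led cluster. Of 81 genes in the whole class 2 were past 1.5-fold higher and 8 lower, against 9.30% and 13.7% of all genes, and 56 lay above 1, as did 50.8% of all genes. The ratios went both ways: Atp5k stood at 389 against 255 CPM (1.52, 1.40 to 1.67) and Cox7c, a small complex IV subunit, at 831 against 547 CPM (1.52, 1.43 to 1.61). The 5 lowest genes were Uqcrc1 at 62.5 against 210 CPM (0.298, 0.255 to 0.346), Ndufv1, the NADH-binding flavoprotein of complex I, at 24.1 against 73.4 CPM (0.328), Ndufaf7 at 13.6 against 35.7 CPM (0.381), Atp5f1, the b subunit of the ATP synthase stalk, at 265 against 545 CPM (0.487), and Uqcrfs1 at 143 against 278 CPM (0.515).

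Of these 5 genes, Uqcrc1, Uqcrfs1 and Atp5f1 could be compared in a further class at 12 h and were lower there too, whereas Ndufv1 and Ndufaf7 were compared in monocyte-like cells alone. In monocyte-like cells Uqcrc1 stood at 0.285 in the Chil3-led, 0.307 in the Ear2-led and 0.342 in the Arg1-led cluster relative to the 12 h BFP-negative library. In cDC-like cells its ratio was 0.303 (12 against 592 UMIs), and that of Uqcrfs1 was 0.447 (22 against 737 UMIs). In T-cell-like cells, where it was too rare to enter the comparison, Uqcrc1 had 1 UMI in the 12 h BFP-positive library (11.8 CPM), against 134 CPM in the BFP-negative library of that time and 136 and 153 CPM in the 0 h BFP-negative and BFP-positive libraries. Atp5f1 was lower in all 3 classes where it was compared at 12 h, with ratios of 0.247 (7 against 2690 UMIs) in T-cell-like, 0.301 in cDC-like and 0.487 in monocyte-like cells, and at 0 h its ratios ran from 0.626 to 0.954 over 3 classes. A lower level that is shared by lymphoid and myeloid classes of 1 library cannot be told apart from a property of that library.

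**Figure D5:**
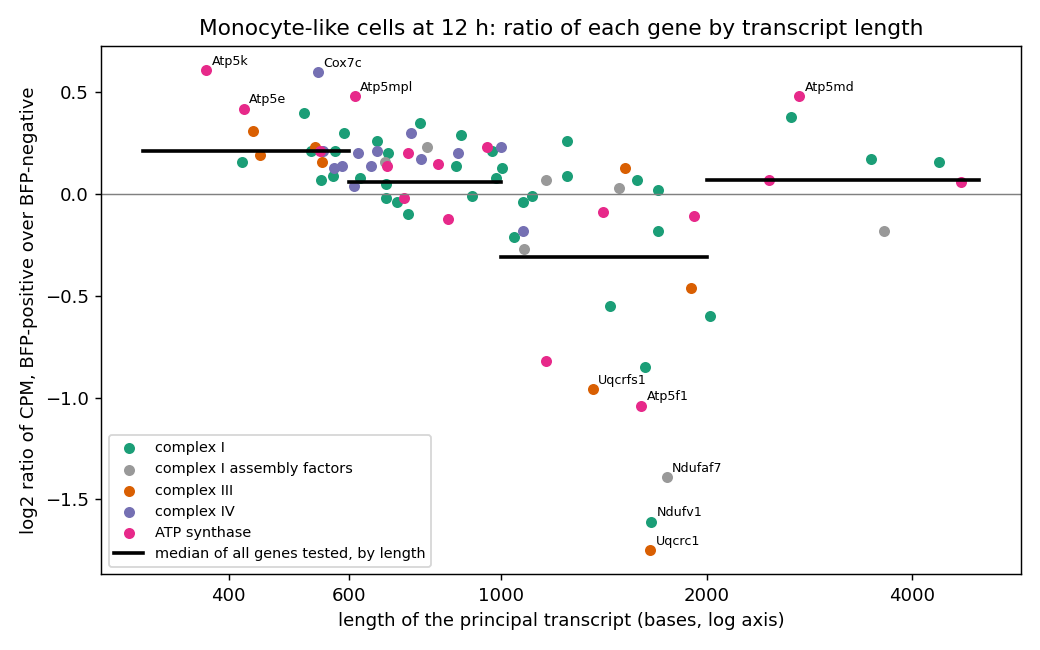
Ratio of the 12 h BFP-positive to the 12 h BFP-negative library in monocyte-like cells (vertical axis, log2) of 81 genes against the length of their principal transcript in bases (horizontal axis, log scale), with black bars for the median of all genes in the same length range. Of the 26 genes from 1000 to under 2000 bases 9 lie above a ratio of 1, and Uqcrc1 and Ndufv1 are the lowest.

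Transcript length moved with this comparison. Over the 81 genes the log2 ratio and the transcript length had a Spearman's rho of -0.53 and a Pearson's r of -0.40, given as a description across genes that share 2 libraries. The 18 genes below 600 bases had a median ratio of 1.16, the 29 genes from 600 to under 1000 bases 1.11, the 26 genes from 1000 to under 2000 bases 0.905 and the 8 longer genes 1.08. Over all genes the medians of the same ranges were 1.15, 1.04, 0.806 and 1.05, so the range from 1000 to under 2000 bases was the lowest there too. Spearman's rho over 7258 genes had the opposite sign, at 0.24, and 4985 of those genes were of 2000 bases or more, against 8 of the 81. At 0 h the 24 genes from 1000 to under 2000 bases had a median ratio of 0.791, beside 0.880 over 967 genes of that range, and rho was -0.36 over 75 genes and 0.20 over 3493. Between the fractions of T-cell-like cells rho was -0.41 at 0 h and -0.44 at 12 h, beside -0.36 and -0.41 over all genes. In NK or ILC1-like cells of 0 h it was -0.41, beside -0.24 over all genes. In cDC-like cells of 12 h it was -0.39, beside -0.16. The part of length in the ratios of single genes was not tested. In monocyte-like cells of 12 h the summed level of the nuclear genes described here was higher in the BFP-positive library, at 1.09. Unlike this sum, some other metabolic and proteasome lists were lower there. TCA cycle genes had a ratio of 0.684, complex II 0.806 and proteasome genes 0.876, while cytosolic ribosomal protein genes stood at 1.12. Of the TCA cycle genes 6 of 13 were past 1.5-fold lower, where 13.7% of all genes were. Neither these ratios nor that share were matched for transcript length. Over all genes from 1000 to under 2000 bases the median ratio was 0.806, as given above. The part of length in the differences between lists was not tested.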

How the data were processed

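The deposited matrices hold UMI counts, which the authors made with Cell Ranger: per the file headers version 4.0.0, while the submitters' processing notes give version 3.0.1 and the mm10 genome. Per the labels' protocols, the liver was digested (collagenase, DNase), leukocytes were enriched by Percoll, and the sorted fractions went into 10x 3′ libraries. The libraries held 18891674 and 29859062 UMIs (BFP-negative, 0 h and 12 h) and 1148221 and 5048583 UMIs (BFP-positive). No column of another sample was present.

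Barcodes with at least 200 genes and at most 10% mitochondrial UMIs were kept, which removed 254, 132, 11 and 28. A score against simulated doublets, with a limit of 0.15 set after automatic thresholds had called almost none, then removed 240, 382, 3 and 37. Clusters came from 2000 variable genes, 30 principal components, 15 neighbours and Leiden resolution 1 (best of 20 starts). They were named from 21 marker lists, and clusters below 0.5 of their library's median UMIs, or led by genes of another list, stayed unnamed. Raw UMIs were summed by class and library, each side needing 20 cells. Ratios of CPM carry exact 95% conditional binomial (Clopper-Pearson) intervals, which cover counting error only. They were run on simulated Poisson counts, which hold no variation between cells or mice, so this could not check them beyond counting error. A sum of 0 was set to 3 UMIs. A gene was compared where 20 UMIs were expected in the smaller sum if both sides shared the pooled level, and counted past 1.5-fold. Depth limits the BFP-positive lymphoid classes most.

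Genes named are, for a comparison, among the 5 highest and 5 lowest ratios, the 10 highest levels in T-cell-like cells of the 0 h BFP-negative library, the isoform sets, the 5 genes with the highest ratio between classes that kept their top class, and the printed promoters. Ndufs5, Uqcr11, Ndufa8 and the values of a named gene in further classes were added after their values were seen. The values of 1 gene are not reported here. The genes, lists and comparisons were chosen with earlier results of these data known. Gene positions and transcript lengths come from GENCODE vM21, in which all 89 genes were found, and promoters from RefSeq. Alternatives varied the scaling, the depth and mitochondrial limits, the cluster resolution, the averaging, the fold limit and the UMI minimum. Versions were python 3.11.15, numpy 2.4.6, scipy 1.17.1, pandas 2.3.3, anndata 0.12.19, scanpy 1.11.5, leidenalg 0.10.2, scikit-learn 1.9.0 and matplotlib 3.10.9.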

Additional observations from a re-analysis of the deposited data

Results flagged for a closer look

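Of the 11 sums compared between the 12 h BFP-negative libraries and 0 h, 10 had a higher level of the 89 genes at 12 h, and the low-UMI clusters had a lower one, at a ratio of 0.887 (0.849 to 0.927). Those clusters stood at 7315 CPM at 0 h and 6489 CPM at 12 h. The 11 sums count the Chil3-led and Ear2-led clusters beside the monocyte-like class that holds them. This difference in direction was not tested.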

How the results depend on the processing

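No paired analysis was possible because each group has 1 library. Of 133 values of the designed comparisons under an alternative, 91 stayed and 42 moved, and of 552 values of single named genes 549 stayed and 3 moved. A ratio stayed if it lay within the counting interval of the main value, and a count if it changed by at most 1.5-fold. Intervals of single genes are wide and the alternatives reuse UMIs of the same libraries, so for single genes this is a weak check. No summed ratio whose interval excluded 1 crossed 1, but that of monocyte-like cells between fractions at 0 h, 0.997, lay above 1 under some settings and below it under others. The genes past 1.5-fold in T-cell-like cells between fractions at 12 h went from 3 higher and 1 lower to 0 higher and 2 lower when centred. With mitochondrial and ribosomal protein genes left out of the total, the summed ratio was 1.15 in monocyte-like cells over time in the BFP-negative libraries, 1.23 and 1.28 in T-cell-like cells between fractions at 0 h and 12 h (7 genes past 1.5-fold at 12 h), and 1.12 in monocyte-like cells between fractions at 12 h. Centred on the median gene it was 1.07 (T-cell-like) and 1.22 (monocyte-like) over time in the BFP-negative libraries, 1.40 with 30 genes in monocyte-like cells over time in the BFP-positive libraries, 1.04 with 2 genes in T-cell-like cells between fractions at 12 h, and 1.03 in monocyte-like cells between fractions at 0 h. That centring shifts all genes by more than 0.1 (log2) in monocyte-like cells over time in the BFP-positive libraries (-0.13) and in T-cell-like cells between fractions at 12 h (0.11).

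In monocyte-like cells of 1500 to 5000 UMIs the ratios were 1.09 (6 genes) and 1.251 over time and 0.972 and 1.11 between fractions at 0 h and 12 h. At Leiden resolution 2 they were 1.19 and 1.32 over time and 1.11 between fractions at 12 h, and with each cell weighted equally 1.15, 1.21 and 1.06. A lower fold limit, the only one tried, gave 4 genes in T-cell-like cells and 31 in monocyte-like cells over time in the BFP-negative libraries, 53 in monocyte-like cells over time in the BFP-positive ones, 8 and 12 in T-cell-like cells and 30 and 18 in monocyte-like cells between fractions at 0 h and 12 h. With no UMI minimum, which adds genes with few UMIs, the counts were 1 and 18 over time in the BFP-negative libraries, 20 and 24 in T-cell-like cells between fractions, and 13 in monocyte-like cells between fractions at 0 h. All these counts join higher and lower genes. The share over all genes was not taken at the lower fold limit or without the UMI minimum, so the counts do not set these genes apart. Another 3 choices were added after seeing the data. With doublets kept, the ratios were 1.19 in monocyte-like cells over time in the BFP-negative libraries, 1.21 in T-cell-like cells between fractions at 12 h, and 1.02 (4 genes) and 1.10 in monocyte-like cells between fractions at 0 h and 12 h. The share over all genes was not taken with doublets kept either. With clusters led by a gene of another list kept, they were 1.24 over time in the BFP-positive libraries and 1.07 between fractions at 12 h in monocyte-like cells. Leaving out cells above 1% erythroid UMIs moved none of them. The cause of these shifts was not tested.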
